A study of Arabidopsis thaliana with 9 samples.

Results

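Berberine bridge enzyme-like proteins are secreted enzymes that oxidise their substrates with a covalently bound FAD. Some of them, but not all, pass the electrons readily to oxygen, which yields hydrogen peroxide. They are named after the berberine bridge enzyme of poppies, which closes a ring in alkaloid synthesis, a pathway that Arabidopsis thaliana lacks. In Arabidopsis several members are known from defence and from the cell wall: some oxidise wall-derived sugar fragments that plants sense as damage signals, others oxidise an indole cyanohydrin of tryptophan-derived defence compounds or the alcohol precursors of lignin. The 10 loci described here were fixed by locus code, and 9 of them are paired with a probe set in the platform annotation used. They have 10 probe sets of the 22810 on the array, of which 2 are shared with a neighbouring family locus. The locus AT2G34790, whose product oxidises lignin precursors in the test tube, has none and was not analysed here. Their signals were compared with those of 17 other loci of the family, of which 14 have a probe set of their own, so that 24 probe sets stand for the family.

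Whole seedlings of 3 genotypes had been hybridised to ATH1 arrays, 1 array a sample and 3 arrays a genotype: the wild type Col-0, the mutant vtc1-1 (no background given in the labels) and the mutant vtc2-1, induced with EMS in Col-0. As background, both mutants have low ascorbate (vitamin C), since VTC1 and VTC2 encode enzymes of its synthesis. All seedlings had grown for 14 days on minimal nutrient agar without any treatment, and each mutation is represented by a single allele. The mutated genes VTC1 and VTC2 have no probe set in the annotation used and were not analysed here. Nothing in the labels ties a replicate to a sowing of its own, so the p-values measure only how far these samples spread, which may be technical. Of the fixed markers, RCA, a leaf gene (1 of 12 listed is paired), had signals of 5751 to 8376 over the arrays. The 3 paired of 15 root markers summed to 1787 to 4486, nearly all of it PYK10. So few paired markers do not measure the shares of shoot and root RNA.

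One wild-type array stood apart from the other 2, and the results below depend on it. Pearson's r between arrays, taken over the log2 signals of the 14603 probe sets bright enough to be tested (probe sets are no replicates), was 0.933 for the first pair of Col-0 arrays. Their r with Col-0 replicate 3 was 0.874 and 0.889, while that array reached 0.916 to 0.931 with the 6 mutant arrays. Col-0 replicates 1 and 2 had 0.888 to 0.931 with them. Col-0 replicate 1 was the highest of all arrays at 16% of tested probe sets and the lowest at 13.7%. For Col-0 replicate 3 these shares were 11% and 15.3%. These values do not tell which wild-type array is the more usual one, so the fit without replicate 3 is not taken as the truer one. A probe set was tested if its signal exceeded the 40th percentile of its own array on at least 3 of the 9 arrays, and 9 of the 10 member probe sets did so. The comparisons with Col-0 are therefore given with all arrays and without Col-0 replicate 3.

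The members were set apart less by genotype than by this one wild-type array. On Col-0 replicate 3 the oxidases of sugar fragments, the indole oxidase AT1G26380 and most of their relatives had signals several-fold above those of replicates 1 and 2. Of the 9 tested member probe sets, 7 had their highest signal of all arrays there, against 11% of all tested probe sets, and the same 7 exceeded the mean of replicates 1 and 2 by more than 2-fold, against 6.68%. Here and below, folds of Col-0 replicate 3 over that mean are taken from the mean of the log2 signals. AT1G26380 and AT1G26420 passed the filter only with that array among their 3, and without them both counts were 5 of 7. Col-0 replicate 1 was the lowest of all arrays for 6 of 9, against 13.7% of all tested probe sets. AT5G44400 was the exception among the brighter members: its signal was higher on all 6 mutant arrays than on any wild-type array. In limma, 0 of 9 member probe sets passed an adjusted p of 0.05 in any of the 3 comparisons with all arrays. In vtc1-1 against Col-0, 0% of all tested probe sets passed on the higher side and 0% on the lower. In vtc2-1 against Col-0 these shares were 0% and 0.00685%, and in vtc2-1 against vtc1-1 they were 0% and 0.00685% as well. At an unadjusted p under 0.05, 1 member probe set was higher in vtc1-1 (2.26% of all) and 1 in vtc2-1 (3.66%), AT5G44400 both times, and none was lower (1.87% and 2.62%). Between the mutants 1 was lower in vtc2-1, AT1G26380 (1.58% of all), and none higher (2.03%).

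**Figure D1:**
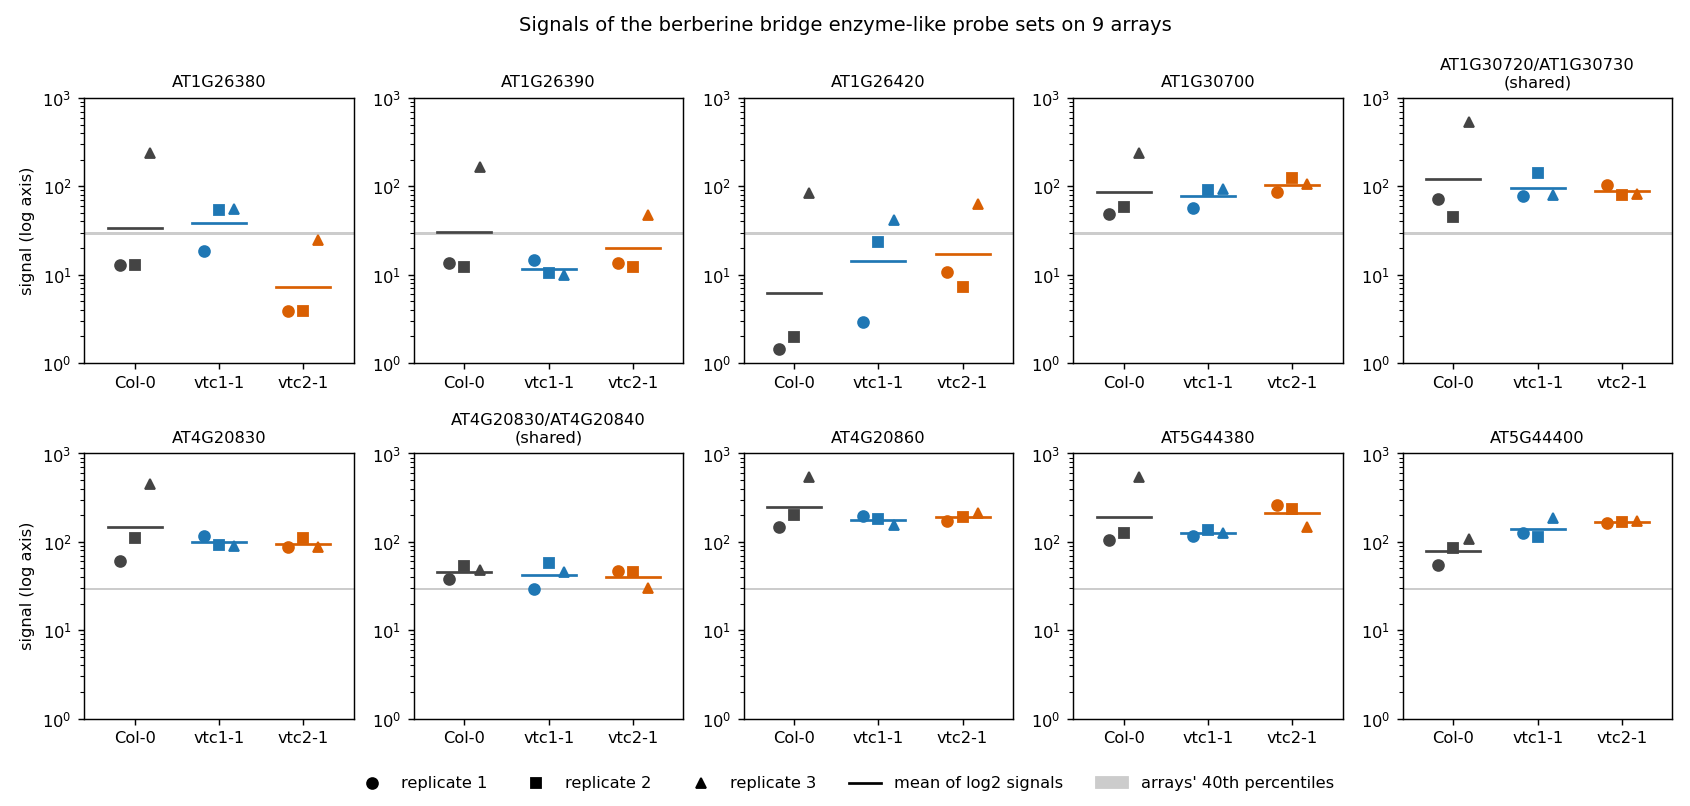
Signal of each of the 10 member probe sets on a log axis, by genotype, with 1 point for each of the 9 arrays (marker shape for the replicate), lines at the mean of the log2 signals and a grey band at the arrays' 40th percentiles. In 8 panels the triangle of Col-0 replicate 3 lies above every other point, while AT5G44400 is higher on all 6 mutant arrays than on the wild-type arrays.

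The 2 members that act on sugar fragments lie near each other on chromosome 4. AT4G20830 encodes an oxidase of oligogalacturonides, the pectin fragments that trigger immune responses, and inactivates them as signals. Its own probe set had signals of 61.5, 111 and 456 in Col-0 replicates 1, 2 and 3. In vtc1-1 the signals were 116, 93.1 and 88.7, and in vtc2-1 they were 87.0, 112 and 87.9. The 6 mutant arrays thus lay within or just above the span of Col-0 replicates 1 and 2, and Col-0 replicate 3 stood 5.51-fold above the mean of those. The log2 difference was -0.57 ± 0.51 in vtc1-1 (± SE, 3 arrays in each group; adjusted p = 0.998 in limma) and -0.62 ± 0.51 in vtc2-1 (limma adjusted p = 0.841). Without Col-0 replicate 3 the sign turned, to 0.25 ± 0.25 and 0.20 ± 0.25.

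A further probe set of this locus also matches its neighbour AT4G20840, so its signal cannot be assigned to either. It showed no such gap: the signals were 37.8, 53.5 and 48.1 in Col-0, 29.7, 57.7 and 45.2 in vtc1-1 and 47.3, 45.3 and 30.3 in vtc2-1. All 3 groups overlapped, and Col-0 replicate 3 lay between the other wild-type arrays. Col-0 replicate 3 was 1.07-fold above the mean of replicates 1 and 2 here, against 5.51-fold for the other probe set of AT4G20830, so the probe sets of this locus disagree on that array. The cause was not tested.

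AT4G20860 encodes a cellodextrin oxidase, which acts on fragments of cellulose. Signals were 146, 199.6 and 539 in Col-0, 198, 182 and 154 in vtc1-1 and 170.3, 192 and 209.6 in vtc2-1. Again the mutant arrays lay inside the range of Col-0 replicates 1 and 2, or at most 4.99% above it, and the third wild-type array stood 3.16-fold above their mean. Log2 differences were -0.50 ± 0.36 in vtc1-1 and -0.40 ± 0.36 in vtc2-1, and without Col-0 replicate 3 they were 0.05 ± 0.19 and 0.15 ± 0.19. Over the 9 arrays the profiles of AT4G20830 and AT4G20860 were the closest of all 36 pairs of tested member probe sets, with a root mean square difference of 0.28 between their mean-centred log2 signals. Every pair shares the same arrays, Col-0 replicate 3 among them, so this closeness is a description.

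AT1G26380 and its neighbours form a run of 5 adjacent family loci on chromosome 1, of which AT1G26380, AT1G26390 and AT1G26420 are members. AT1G26380 is the FAD-linked oxidase that makes indole-3-carbonyl nitrile, a step toward a tryptophan-derived defence compound induced by bacteria. Its signals were 12.8, 12.8 and 239.5 in Col-0, 18.5, 53.6 and 56.1 in vtc1-1 and 3.93, 3.88 and 24.7 in vtc2-1. The vtc1-1 arrays were above the first 2 wild-type arrays and far below the third. In vtc2-1, replicates 1 and 2 were below the 20th percentile of their arrays (9.09 and 9.41) and have only a bound there. The log2 difference was 0.17 ± 1.096 in vtc1-1 and -2.24 ± 1.096 in vtc2-1, and 1.58 ± 1.08 and -0.83 ± 1.08 without Col-0 replicate 3. Between the mutants it was -2.40 ± 1.096 (limma unadjusted p = 0.0479, adjusted p = 0.998). These vtc2-1 values rest on signals below the 20th percentile: with such signals set to that percentile they were -1.41 ± 0.95 against Col-0 and -1.57 ± 0.95 between the mutants. The mutants overlapped, since vtc2-1 replicate 3 exceeded vtc1-1 replicate 1.

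AT1G26420 lies at the other end of this run. Its signals were 1.46, 1.99 and 84.5 in Col-0, 2.94, 23.5 and 41.8 in vtc1-1 and 10.8, 7.21 and 62.3 in vtc2-1. The first 2 wild-type signals were below the 20th percentile, and with that percentile as a floor on each array Col-0 replicate 3 was at least 8.91-fold higher than either. The signals of vtc1-1 replicate 1 and vtc2-1 replicate 2 were also below it and have no order among themselves, the other mutant arrays lay above it, and none reached Col-0 replicate 3. Differences of 1.19 ± 1.78 in vtc1-1 and 1.43 ± 1.78 in vtc2-1 on the log2 scale were smaller than their errors, and those without Col-0 replicate 3 were 3.06 ± 2.23 and 3.31 ± 2.23. All of these values lean on signals below the floor. With signals under the 20th percentile set to it, the differences with all arrays were 0.14 in vtc1-1 and -0.03 in vtc2-1.

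AT1G26390, next to AT1G26380, passed the 40th percentile on 2 arrays and was not tested. These were Col-0 replicate 3 at 163, 12.6-fold above the mean of replicates 1 and 2 (13.7 and 12.3), and vtc2-1 replicate 3 at 47.8. On the other 5 mutant arrays it had 9.89 to 14.7. In all 3 members of this run vtc2-1 replicate 3 was the highest vtc2-1 array. The loci between them, AT1G26400 and AT1G26410, were too dim to test, but AT1G26410 had 84.6 on Col-0 replicate 3, against 1.13 to 26.0 on the other 8 arrays. Neighbours of such likeness can share hybridisation even where the annotation names 1 locus, and this was not tested.

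**Figure D2:**
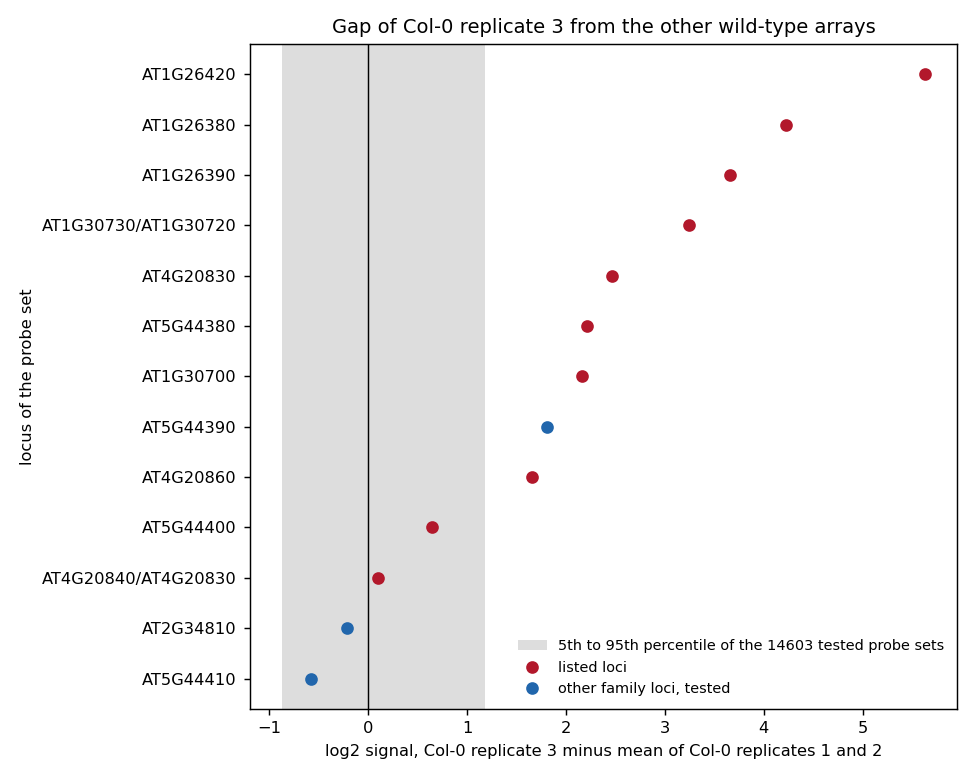
Log2 signal of Col-0 replicate 3 minus the mean of Col-0 replicates 1 and 2 for the 10 member probe sets (red) and the 3 further tested probe sets of the family (blue), over a band from the 5th to the 95th percentile of all tested probe sets, -0.87 to 1.18. Of the members, 8 lie above the band, up to 5.63 for AT1G26420, whose reference signals were below the 20th percentile, and AT5G44400 and the shared AT4G20840/AT4G20830 lie inside it.

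The second run on chromosome 1 holds 6 family loci, from AT1G30700 to AT1G30760. AT1G30700 had signals of 48.5, 58.0 and 237 in Col-0, 56.1, 91.7 and 94.4 in vtc1-1 and 86.7, 123 and 107 in vtc2-1. Col-0 replicates 1 and 2 lay below all 3 vtc2-1 arrays and below 2 of 3 vtc1-1 arrays, and replicate 3 lay above all mutants. With all arrays the log2 difference was -0.15 ± 0.47 in vtc1-1 and 0.26 ± 0.47 in vtc2-1. Without Col-0 replicate 3 it was 0.57 ± 0.26 (limma adjusted p = 0.381) and 0.98 ± 0.26 (limma adjusted p = 0.0942), neither past the threshold.

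The member AT1G30720 shares its probe set with its neighbour AT1G30730, which is no member, so the signal cannot be assigned to either. These were 72.6, 44.5 and 539.6 in Col-0, 77.9, 143 and 80.0 in vtc1-1 and 103, 80.3 and 81.1 in vtc2-1. Every mutant array exceeded Col-0 replicates 1 and 2 while Col-0 replicate 3 was 9.49-fold above their mean. The difference turned from -0.32 ± 0.66 to 0.76 ± 0.29 in vtc1-1 and from -0.46 ± 0.66 to 0.62 ± 0.29 in vtc2-1 when that array was left out. AT1G30710 and AT1G30740 of the same run stayed below the 40th percentile on every array, with signals of 0.858 to 10.5 and 0.621 to 1.53. So did AT1G30760, which encodes an enzyme that oxidises lignin precursors, at 0.761 to 18.2.

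AT5G44400 and AT5G44380 belong to a run of 6 loci on chromosome 5. AT5G44400 had signals of 55.3, 84.8 and 107 in Col-0, 128, 114 and 187 in vtc1-1 and 163, 166 and 170.0 in vtc2-1. Its 3 groups were the only ones among the members where a mutant did not overlap the wild type, and this held for both mutants. Of all tested probe sets, 4.36% had every vtc1-1 array above every Col-0 array and 6.27% every vtc2-1 array, and 3.58% and 4.52% lay wholly below. Wild-type arrays had a mean signal of 82.4 ± 26.0, the vtc1-1 arrays 143 ± 39.1 and the vtc2-1 arrays 166 ± 3.47 (SD, n = 3 arrays each).

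The log2 difference of AT5G44400 was 0.81 ± 0.25 in vtc1-1, a 1.75-fold higher signal (SE, limma unadjusted p = 0.00629, adjusted p = 0.998). In vtc2-1 it was 1.06 ± 0.25, 2.09-fold higher (limma unadjusted p = 0.000936, adjusted p = 0.651). Both comparisons use the same Col-0 arrays and are not independent. Without Col-0 replicate 3 the gene rose in vtc2-1 by 1.28 ± 0.24 (2.43-fold, limma adjusted p = 0.0307), the only member called on the higher side in that fit, where 0.548% of tested probe sets were. No member was called lower there (0.288% of all). In vtc1-1 that fit called no member (0.226% of all higher and 0.0959% lower), with 1.03 ± 0.24 for AT5G44400 (limma adjusted p = 0.0938). For this gene the array left out was the highest of Col-0, so its removal could only enlarge both differences. That array was set apart by its values in these same data, so the call is a description. Without Col-0 replicate 1 or without Col-0 replicate 2, no member was called in either mutant. The mutants differed from each other by 0.25 ± 0.25, which is within the spread between arrays. Ordered by mean signal, Col-0 was lowest and vtc2-1 highest, with the mutants not separated. In whole seedlings, more RNA of this gene per cell and more cells that express it cannot be told apart.

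**Figure D3:**
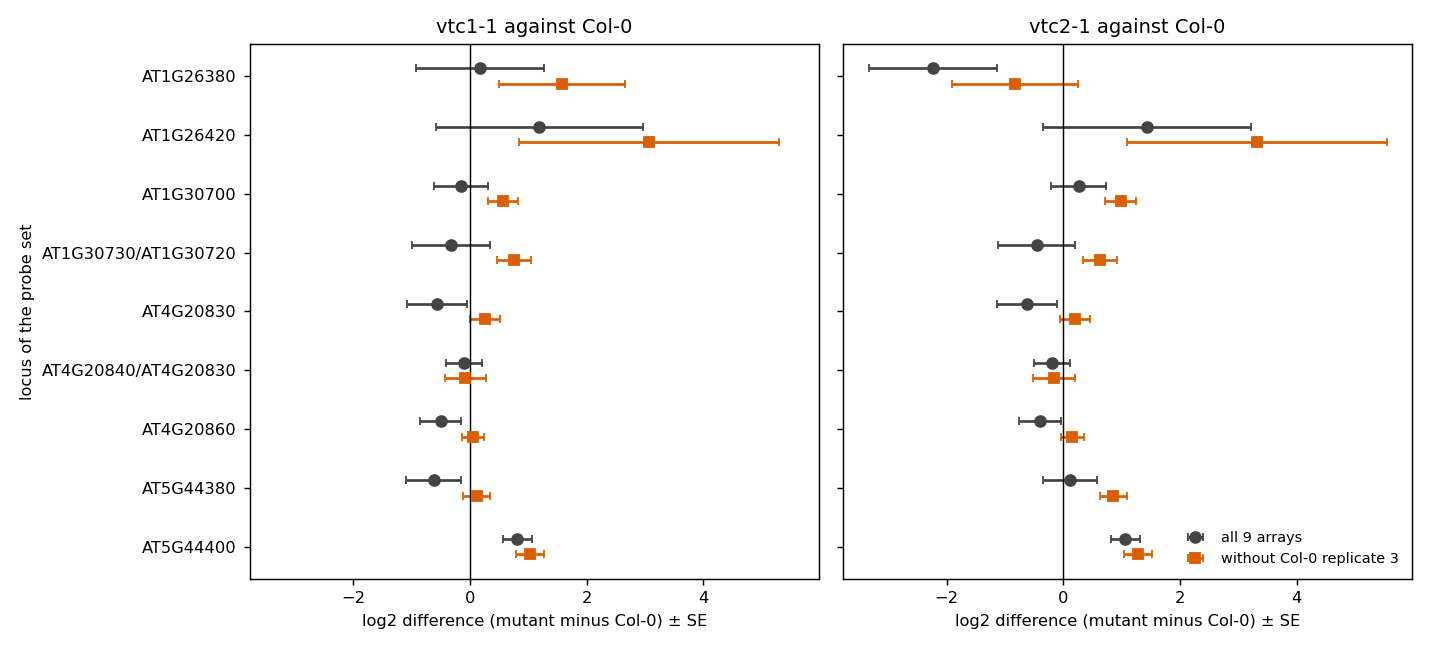
Log2 difference from Col-0 (± SE) of the 9 tested member probe sets in vtc1-1 (left) and vtc2-1 (right), with all 9 arrays (circles) and without Col-0 replicate 3 (squares). The squares lie to the right of the circles for each of the 9 in both panels, since each was higher on that array than on the other Col-0 arrays on average. AT5G44400 in vtc2-1 without that array, at 1.28, is the only value past the threshold.

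AT5G44380 is the other member of the chromosome 5 run. Its signals were 106, 126 and 538 in Col-0, 116, 137 and 124 in vtc1-1 and 260.5, 238 and 148 in vtc2-1. All vtc2-1 arrays lay above all vtc1-1 arrays, as at 5.69% of tested probe sets (4.56% lay wholly below), and Col-0 replicate 3 lay above every mutant array. The difference between the mutants was 0.74 ± 0.47 (limma adjusted p = 0.998). Against Col-0 it was -0.62 ± 0.47 in vtc1-1 and 0.12 ± 0.47 in vtc2-1, and 0.12 ± 0.23 and 0.85 ± 0.23 without Col-0 replicate 3 (limma adjusted p = 0.883 and 0.0995). The 3 paired root markers differed among themselves here. PYK10, a beta-glucosidase abundant in roots, had 4238, 4406 and 2086 in vtc2-1 replicates 1, 2 and 3 and 1726 to 2318 in vtc1-1, so it too was lower on vtc2-1 replicate 3. The root hair expansins did not follow: EXPA7 had 31.7, 30.1 and 39.6 and EXPA18 30.8, 50.4 and 35.8 on the vtc2-1 arrays. The part of root RNA in the difference of AT5G44380 was not tested.

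A fit without both Col-0 replicate 3 and vtc2-1 replicate 3 was added after the values were seen. In it AT5G44380 rose by 1.103 ± 0.19 in vtc2-1 against Col-0 (limma adjusted p = 0.0171) and by 0.99 ± 0.17 in vtc2-1 against vtc1-1 (limma adjusted p = 0.0319). AT5G44400 rose by 1.26 ± 0.26 in vtc2-1 against Col-0 (limma adjusted p = 0.046). These were the members called higher there, 2 of 9 in vtc2-1 against Col-0 (0.616% of all tested probe sets) and 1 of 9 in vtc2-1 against vtc1-1 (0.123%). None was called lower (0.178% and 0.164% of all), and none in vtc1-1 against Col-0 (0.918% of all higher and 0.322% lower). The vtc2-1 group had 2 arrays in that fit, and its arrays were chosen with their values known, so these calls are a description.

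The adjacent loci AT5G44390 and AT5G44410, which are no members, extend the view of this run. AT5G44410 had signals of 38.5, 51.5 and 29.9 in Col-0, 49.8, 46.8 and 50.7 in vtc1-1 and 56.3, 58.8 and 57.3 in vtc2-1. Here Col-0 replicate 3 was the lowest of all arrays, and all vtc2-1 arrays lay above all others. Every vtc2-1 array lay above every Col-0 array at 6.27% of tested probe sets, and below at 4.52%. The log2 difference of vtc2-1 from Col-0 was 0.56 ± 0.24 (limma adjusted p = 0.783), and 0.37 ± 0.25 without Col-0 replicate 3. AT5G44390 was dim, at 29.7, 3.97 and 38.0 in Col-0, 26.2, 18.8 and 27.3 in vtc1-1 and 34.6, 37.2 and 40.9 in vtc2-1.

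In vtc2-1 against vtc1-1 the log2 differences of these neighbours were 0.66 ± 0.71 for AT5G44390 and 0.23 ± 0.24 for AT5G44410, with no overlap between the mutants in either, as at 5.69% of tested probe sets. AT5G44390 passed the filter only through the vtc2-1 arrays and Col-0 replicate 3, so its direction in vtc2-1 is no support for that of the others. None of these values passed the threshold, the loci were set side by side after their values were seen, and neighbours of like sequence may not be separate measurements.

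**Figure D4:**
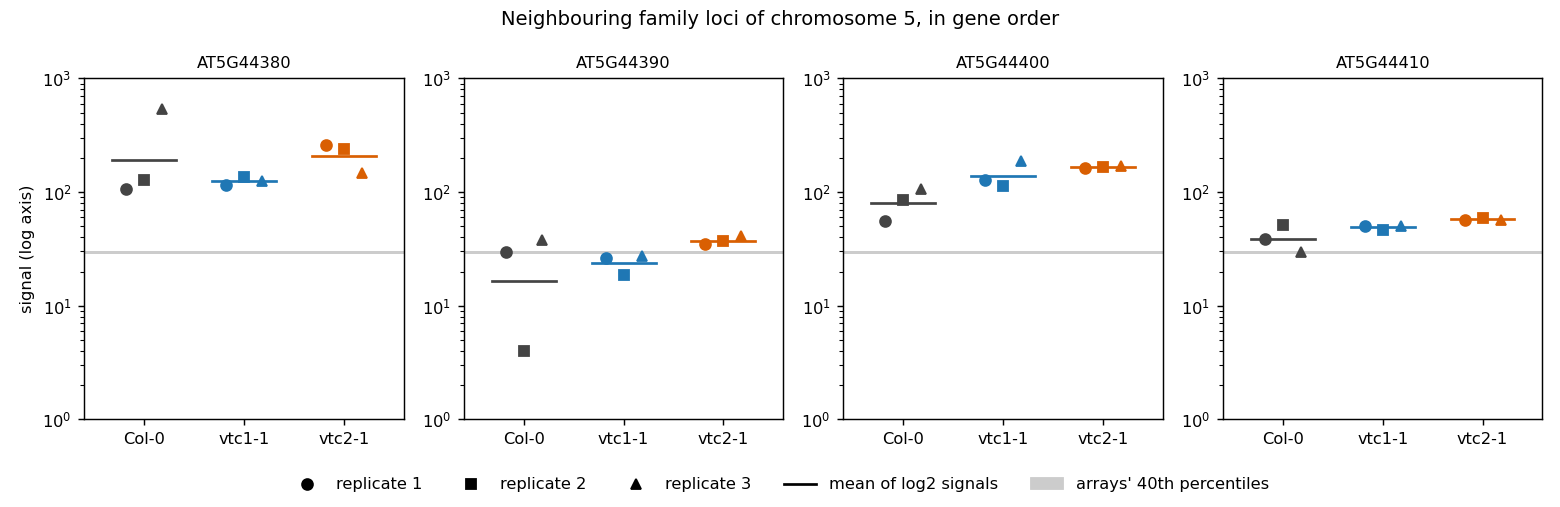
Signals of the 4 adjacent tested family loci of chromosome 5 on a log axis, by genotype and replicate, with lines at the mean of the log2 signals and a grey band at the arrays' 40th percentiles. The vtc2-1 points lie above all vtc1-1 points in AT5G44380, AT5G44390 and AT5G44410, and above all Col-0 points in AT5G44400 and AT5G44410.

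Of the whole member list, 3 of 9 tested probe sets had a log2 difference above 0 in vtc1-1 with all arrays (51.2% of all tested). In vtc2-1 the count was 4 of 9 (51.9%). The medians of the members were -0.15 and -0.19, against 0.01 and 0.01 over all tested probe sets. Without Col-0 replicate 3 the counts were 8 of 9 (48.1% of all tested) and 7 of 9 (49.3%). The medians were then 0.57 and 0.62, against -0.02 and -0.01. Without AT1G26380 and AT1G26420, the counts went from 1 and 3 of 7 to 6 and 6 of 7. Col-0 replicate 3 was set apart by these same values. It lay above the other Col-0 arrays on average at each of the 9, so every difference had to rise without it. The direction of the list therefore rests on that wild-type array, and the counts without it are a description. On the same array RCA had its lowest signal, 5751 against 6295 to 8376 on the others, while the root markers summed to 3105, inside the range of the rest. That sum is nearly all PYK10, at 3001. Of the other root markers, EXPA7 had its highest signal there, 56.9 against 30.1 to 45.9, and EXPA18 its second highest, 47.3 against 22.3 to 50.4. The part of these in the high signals of the oxidases was not tested.

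The rest of the family gave few measurable signals. Of the 14 further probe sets, 3 were tested: AT5G44390, AT5G44410 and AT2G34810. AT2G34810 had signals of 25.1 to 40.5 in Col-0, 23.0 to 37.4 in vtc1-1 and 31.5 to 35.5 in vtc2-1, which overlap, and differences of -0.02 ± 0.34 and 0.15 ± 0.34, or -0.09 ± 0.40 and 0.08 ± 0.40 without Col-0 replicate 3. The untested AT1G11770, AT1G26400, AT1G34575, AT4G20800, AT4G20820, AT5G44360 and AT5G44440 had signals no higher than 25.3 on any array, below every array's 40th percentile of at least 28.3. AT1G11770 and AT4G20840 encode further oligogalacturonide oxidases, and of these 2 and AT4G20830 only the last had a probe set of its own above this level. The family locus AT1G01980 has no probe set and was not analysed here, so the activity was not covered in full.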

How the data were processed

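The deposited values are signal intensities from ATH1 arrays, computed by the authors with MAS5 in GCOS per the submitters' processing notes, with each array at a trimmed mean of 100.009. No depth applies to arrays, so the number of arrays limits the precision. The intensities were taken as log2 with no pseudocount. Probe sets above the 40th percentile of their array on at least 3 of 9 arrays, control probe sets left out, were tested (14603 of 22810). Group means over all 9 arrays were fitted with limma 3.58.1 in R 4.3.3 (eBayes with an intensity trend), p-values were Benjamini-Hochberg adjusted over all tested probe sets, and the threshold was 0.05. The procedure was tested on simulated data. Probe sets were named through the platform annotation, brought to locus codes with the TAIR10.1 gene table: 13513 name 1 gene, 503 several and 8794 are not listed there. All paired members and family loci are named. Neighbouring lists give up to 4 tested genes with the smallest unadjusted p, and likeness gives the 5 closest probe sets. Members and lists were chosen with earlier results of these data known. The labels name no batch. Alternatives are given in the closing section.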

Additional observations from a re-analysis of the deposited data

How the results depend on the processing

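Over the 36 log2 differences of the 12 tested family probe sets, 747 alternative values were computed: 692 kept direction and call, 51 turned their sign, 4 newly passed the threshold and 0 lost a call. Leaving out arrays gave 0 to 2 members called in vtc2-1 against Col-0 and 0 to 1 in vtc2-1 against vtc1-1. Over the whole table it gave 0 to 181 probe sets in vtc1-1 against Col-0, 0 to 122 in vtc2-1 against Col-0 and 1 to 42 in vtc2-1 against vtc1-1, compared with 0, 1 and 1. The higher ends came without Col-0 replicate 3 (122) or without it and vtc2-1 replicate 3 (181 and 42), an alternative chosen after seeing the data. Without an intensity trend the last 2 counts were 0 and 2, and with only the 2 groups compared vtc2-1 against Col-0 had 0. With the replicate number as a block 0 members were called in each comparison, and 0, 1 and 1 probe sets over the table. Same-numbered arrays correlated at -0.07 to 0.20 in their deviations from the group means, and arrays of different number at -0.22 to 0.12. The highest value, 0.20, was that of Col-0 replicate 3 with vtc2-1 replicate 3. Whether same-numbered arrays share more than a number was not tested.

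Leaving out arrays turned these log2 differences, with the ranges given. In vtc1-1 against Col-0 they were AT1G26380 (-0.54 to 1.58), AT1G30700 (-0.58 to 0.57), AT1G30730/AT1G30720 (-1.04 to 0.76), AT2G34810 (-0.17 to 0.19), AT4G20830 (-1.19 to 0.25), AT4G20840/AT4G20830 (-0.33 to 0.15), AT4G20860 (-0.89 to 0.050), AT5G44380 (-1.06 to 0.12) and AT5G44390 (-0.50 to 1.13). In vtc2-1 against Col-0 they were AT1G30700 (-0.16 to 0.98), AT1G30730/AT1G30720 (-1.18 to 0.68), AT4G20830 (-1.25 to 0.25), AT4G20840/AT4G20830 (-0.34 to 0.041), AT4G20860 (-0.79 to 0.15) and AT5G44380 (-0.32 to 1.103). Between the mutants they were AT1G26420 (-0.89 to 1.03), AT1G30730/AT1G30720 (-0.29 to 0.15), AT2G34810 (-0.021 to 0.33), AT4G20830 (-0.17 to 0.063) and AT4G20840/AT4G20830 (-0.35 to 0.13). A pseudocount of 16 gave AT1G26380 -0.10 in vtc1-1 against Col-0. A floor at the 20th percentile gave AT1G26420 -0.034 in vtc2-1 against the wild type and -0.18 between the mutants. Array weights, 0.382 for Col-0 replicate 3, gave 0.13 for AT1G30700 and 0.27 for AT1G30730/AT1G30720 in vtc1-1, 0.23 for the latter in vtc2-1 and 0.11 for AT4G20840/AT4G20830 between the mutants. The cause was not tested. AT5G44400 stayed above 0 under every alternative run, at 0.55 to 1.03 in vtc1-1 and 0.80 to 1.28 in vtc2-1. All its mutant arrays lay above all its Col-0 arrays, so leaving out arrays could not turn these signs. Of the 36 log2 differences of the family, 15 turned under no alternative.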

Other observations

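The profiles of the most variable members were set against those of 7871 tested probe sets that name 1 gene. Closest to AT1G26420, whose log2 signals had an SD of 2.19 over the 9 arrays, were AT4G39670, AT4G22530, AT2G44370, AT5G17760 and AT1G76960, with root mean square differences of 0.86 to 1.12 between mean-centred log2 signals. AT1G26420 lay below the 20th percentile on Col-0 replicates 1 and 2, vtc1-1 replicate 1 and vtc2-1 replicate 2. AT4G39670 had 4.16, 1.95 and 4.25 on Col-0 replicates 1 and 2 and vtc1-1 replicate 1, also below it. Part of this SD and likeness is therefore variation below that percentile. Closest to AT1G26380, with an SD of 1.91, were AT2G44370, AT5G52750, AT5G42830, WRKY53 and ATPMEPCRB, at 0.87 to 0.99. WRKY53, a transcription factor of leaf senescence and defence, had 14.7, 20.3 and 239 on the wild-type arrays in order of replicate number. Its vtc1-1 signals were 37.9, 75.2 and 67.7, and its vtc2-1 signals 17.7, 33.3 and 60.2. It too was highest on Col-0 replicate 3, and the genes were selected for likeness over these same arrays. AT1G26380 and AT1G26420 themselves passed the filter only with Col-0 replicate 3 counted.

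Genes of the processes around these oxidases were sparsely paired, and 0 were called in any comparison, with or without Col-0 replicate 3. Of 24 listed genes of indole defence compounds 1 was tested, UGT74B1, a glucosyltransferase of glucosinolate synthesis, with log2 differences of -0.07 ± 0.23 in vtc1-1 and -0.10 ± 0.23 in vtc2-1 against Col-0 (± SE). Without Col-0 replicate 3 these were 0.15 ± 0.21 and 0.12 ± 0.21. Of 20 genes of pectin fragments and wall damage 1 was tested, the beta-glucanase-like AT3G55430 (GLUC), at -0.34 ± 0.22 and -0.49 ± 0.22 (limma unadjusted p = 0.0487 and adjusted p = 0.783 for vtc2-1), and -0.18 ± 0.22 and -0.33 ± 0.22 without that array.

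Of 23 genes of lignin precursors 2 were tested. HCT, an acyltransferase of monolignol synthesis, had -0.19 ± 0.15 and -0.15 ± 0.15, and -0.15 ± 0.15 and -0.11 ± 0.15 without Col-0 replicate 3. The peroxidase PRX72 had -0.51 ± 0.45 and 0.38 ± 0.45, and -0.27 ± 0.48 and 0.62 ± 0.48 without it. Of 16 genes that remove hydrogen peroxide or oxidise ascorbate 4 were tested. The peroxiredoxin 2CPA had 0.11 ± 0.17 and 0.02 ± 0.17, which turned to -0.02 ± 0.16 and -0.11 ± 0.16 without that array. Among the ascorbate oxidases, AO1 had 0.06 ± 0.23 and 0.33 ± 0.23, and -0.08 ± 0.24 and 0.20 ± 0.24 without it. AO2 went from -0.44 ± 1.07 and -0.93 ± 1.07 to 0.33 ± 1.29 and -0.16 ± 1.29, so its sign in vtc1-1 was set by 1 array. AO3 had -0.15 ± 0.19 and -0.26 ± 0.19, and -0.18 ± 0.21 and -0.29 ± 0.21 without it. Each of these differences was below the threshold. Both mutants are compared with the same Col-0 arrays.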
